A study of Mus musculus with 2 samples.

Results

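The distal end of the imprinted Dlk1-Dio3 locus on mouse chromosome 12 holds a dense run of microRNA (miRNA) hairpins from Mir379 to Mir410. Its members were taken as every counted gene that the GENCODE M21 annotation places on chromosome 12 from 109.705 to 109.75 Mb of mm10, on either strand. This gave 38 of the 1973 counted miRNA genes, of which 34 are annotated on the plus strand and 4 on the minus strand. The 38 genes span 38.9 kb. The closest counted gene before the window, Mir882, lay 22.7 kb outside it and had no read. The closest after it, Mir1247, lay 528 kb away and had 459 and 1001 reads in the 2 libraries. Just inside the edges were Mir379 and Mir3072.

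Small RNA was sequenced from the embryonic facial prominence, the tissue that builds the face and jaws, of healthy B6NCrl mouse embryos at embryonic day 15.5. There was 1 group with 2 biological replicates and no treatment, both of mixed sex. Replicate 1 pooled 78 embryos and replicate 2 pooled 62 embryos, so differences between single embryos are averaged within each library. The libraries held 2978463 and 6408008 reads in miRNA genes. The comparisons open to this design are those between genes of the cluster, and those between the pools.

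MicroRNAs are short RNAs cut from hairpins in longer transcripts, and they lower the output of messenger RNAs that pair with their seed, the stretch from base 2 to base 8. The Dlk1-Dio3 locus is imprinted: its long noncoding RNAs Meg3, Rian and Mirg and its miRNAs are expressed from the maternal chromosome, and Dlk1, Rtl1 and Dio3 mainly from the paternal one. The distal hairpins are known best from neurons, where MEF2 factors drive the cluster and miR-134 acts at dendritic spines, and from the adaptation of newborn mice to life outside the womb.

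The mature sequences are shown first for the hairpins at the start of the cluster. They hold the highest gene and the shared seeds whose hairpins had the highest summed levels. The sequences come from RefSeq on build GRCm38.p6 and are written 5′ to 3′ with the seed in capitals. The counts are per gene and join both arms of a hairpin, so a level belongs to a hairpin and not to either of its mature products.
miR-379-5p: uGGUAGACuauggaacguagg
miR-411-5p: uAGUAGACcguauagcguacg
miR-1193-5p: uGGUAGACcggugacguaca
miR-379-3p: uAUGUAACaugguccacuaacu
miR-411-3p: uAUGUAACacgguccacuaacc
The 5p products of Mir379 and Mir1193 share the seed GGUAGAC. The seed of miR-411-5p differs from it by 1 base, G2A, with positions counted from 1 at the 5′ end and the base of miR-379-5p given first. The 3p products of Mir379 and Mir411 share the seed AUGUAAC, and over 22 bases they differ by U10C and U22C.

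The products of the other genes among the 12 highest follow, so that their seeds can be read beside their levels. Mir409, Mir376a and Mir299a are the plus-strand hairpins opposite the counted minus-strand genes Gm24321, Gm25252 and Mir299b. The 3p product of Mir300 is added because its seed differs from that of miR-381-3p by 1 base, A4G, with the base of miR-381-3p first.
miR-487b-5p: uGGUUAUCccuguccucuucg
miR-409-5p: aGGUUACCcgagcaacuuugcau
miR-409-3p: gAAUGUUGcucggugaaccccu
miR-369-5p: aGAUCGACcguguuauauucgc
miR-369-3p: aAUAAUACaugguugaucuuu
miR-381-5p: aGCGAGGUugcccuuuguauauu
miR-381-3p: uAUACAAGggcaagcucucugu
miR-300-3p: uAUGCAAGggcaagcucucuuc
miR-382-5p: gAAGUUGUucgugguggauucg
miR-382-3p: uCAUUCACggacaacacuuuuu
miR-376a-5p: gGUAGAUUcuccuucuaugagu
miR-376a-3p: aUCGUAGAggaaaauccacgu
miR-541-5p: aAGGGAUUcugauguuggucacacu
miR-541-3p: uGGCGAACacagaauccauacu
miR-299a-5p: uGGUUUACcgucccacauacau
miR-299a-3p: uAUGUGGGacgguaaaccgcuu
miR-154-5p: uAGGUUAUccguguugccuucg
miR-154-3p: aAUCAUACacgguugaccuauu
miR-134-5p: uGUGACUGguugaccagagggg
miR-134-3p: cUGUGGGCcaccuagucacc
No seed occurs more than once among these sequences. Among the 12 highest genes, the 3p products of Mir379 and Mir411 were therefore the only pair found to share a seed, among the products whose sequences were at hand. The 3p product of Mir487b is not among them.

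A last set shows the remaining seeds that occur in a pair of cluster genes.
miR-410-5p: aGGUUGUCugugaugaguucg
miR-494-5p: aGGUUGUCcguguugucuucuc
miR-496a-5p: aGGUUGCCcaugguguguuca
miR-453: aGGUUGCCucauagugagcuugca
miR-758-5p: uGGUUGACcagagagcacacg
miR-1197-5p: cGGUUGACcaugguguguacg
In all, 37 of the 38 genes matched at least 1 mature sequence, 4 of them through the opposite gene. The 69 sequences were 19 to 25 bases long and held 64 distinct seeds. A pair of cluster genes shared 5 of these seeds, and 10 seeds also occurred among the 1665 mature sequences from outside the cluster. Of the 69 sequences, 30 began with U and 26 with A.

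The cluster supplied 183731 reads in replicate 1 and 386728 in replicate 2. This was 6.17% of all miRNA gene reads in replicate 1 (95% Clopper-Pearson interval 6.14 to 6.20) and 6.04% in replicate 2 (6.02 to 6.05). Levels below are in CPM, reads per 1000000 reads in miRNA genes with TMM scaling, and errors are SDs over the 2 pools. A read stands for a whole mature miRNA, so levels were not divided by gene length. How efficiently each miRNA was captured was not measured, which limits comparisons of level between genes. The summed level was 61389 and 60643 CPM, a mean of 61016 ± 527 (SD, n = 2), and on the log2 scale it differed by -0.02 between the pools. It was 37688 CPM without Mir411, Mir487b, Mir376c and Mir758. Their hairpins hold 20 bases in a row that recur in another hairpin, so that reads of such stretches could map to more than 1 place. Among their mature sequences at hand, only miR-376c-5p held a recurring stretch of at least 18 bases. In a bulk sample, fewer expressing cells and less RNA per cell cannot be told apart.

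Nearly the whole cluster was detected. Of its 38 genes, 33 (86.8%) had at least 10 reads in each library, against 333 of 1973 (16.9%) for all counted genes. At most 3 reads in each library were found for Mir1197, Mir654 and Mir453, and Mir453 had none. At these depths, 3 reads make 1.00 CPM in replicate 1 but 0.470 CPM in replicate 2. Mir544 (7 and 16 reads) and Gm27379 (1 and 6 reads) lay between these limits.

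**Figure D1:**
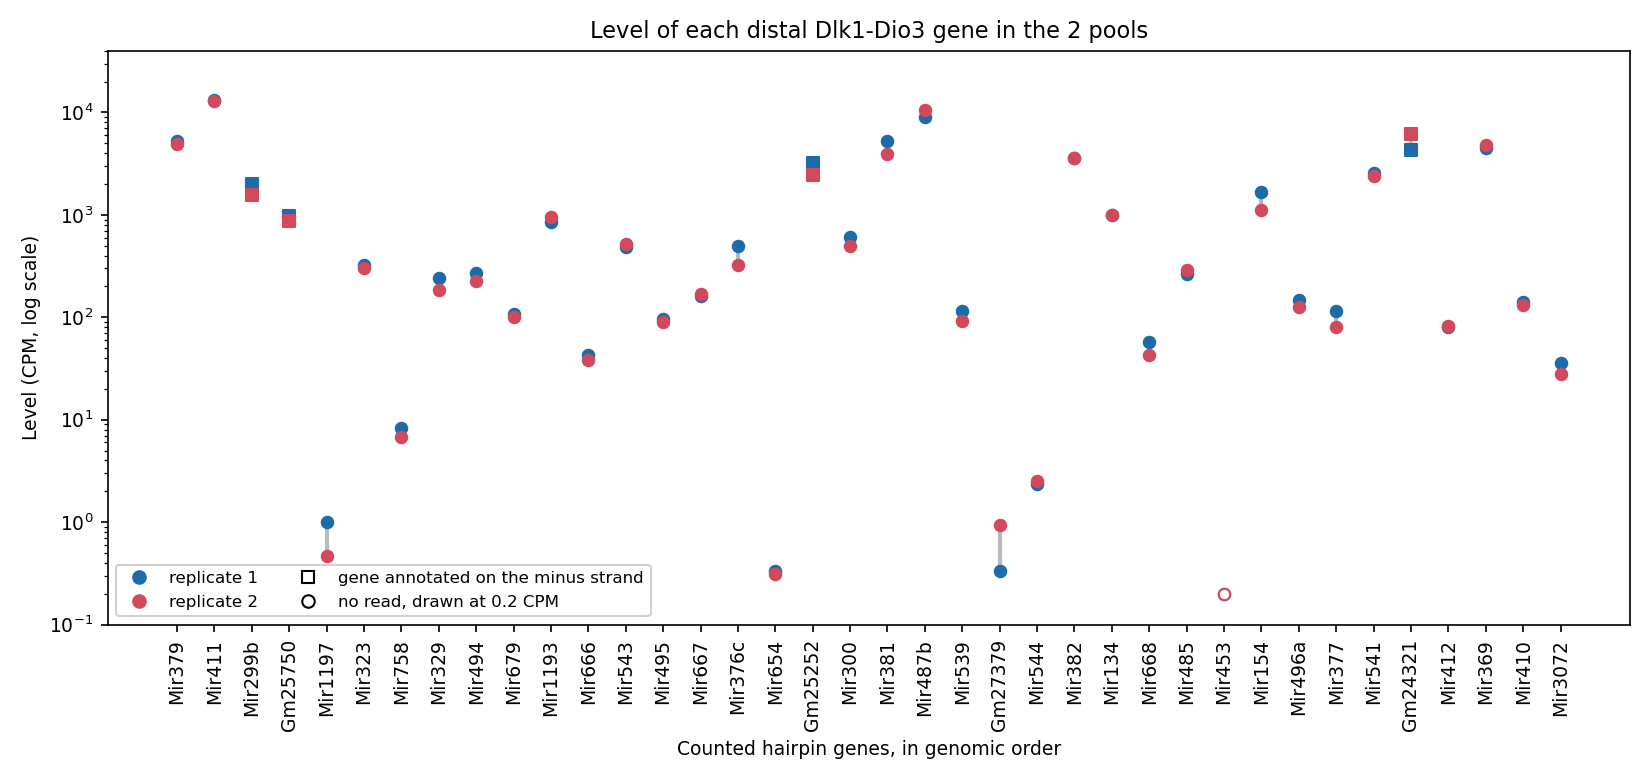
Level of each of the 38 genes in CPM on a log axis, in genomic order, with 1 point per library (replicate 1 and replicate 2) and squares for genes annotated on the minus strand. An open point drawn at 0.2 CPM marks no read. The 2 points of a gene nearly coincide for most genes, while neighbouring genes often lie far apart.

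Levels within the cluster covered a wide range. The highest gene, Mir411, exceeded the lowest detected gene, Mir758, 1598-fold in replicate 1 and 1908-fold in replicate 2. The detected genes had a median level of 406 CPM, against 180 CPM over all 333 detected miRNA genes. Over the detected proximal genes of the same locus, described below, the median was 471 CPM. In replicate 1 and in replicate 2, 4 genes were enough for 50% of the cluster's reads and 12 genes for 90%. The same 12 genes were highest in both libraries and gave 90.8% and 91.5% of the reads.

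**Figure D2:**
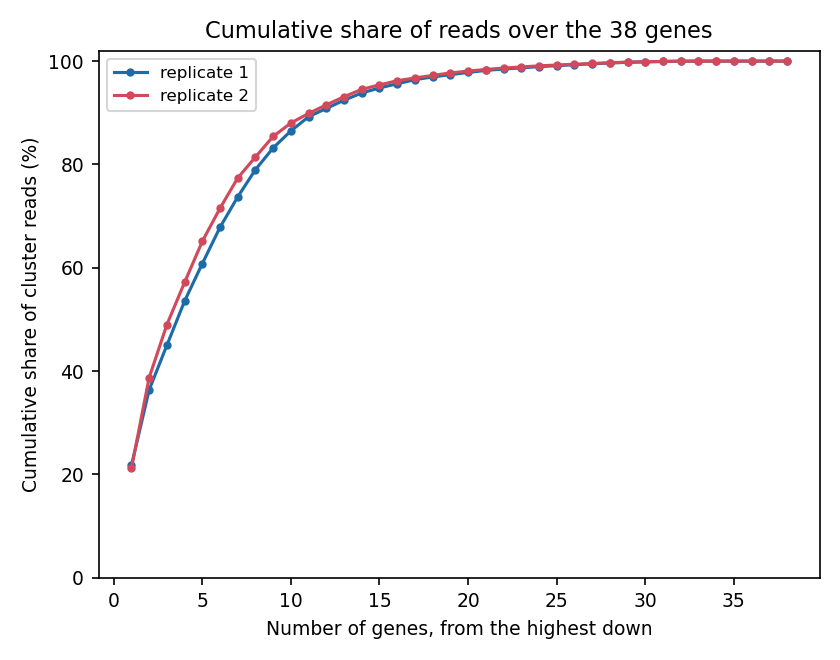
Cumulative share of cluster reads (%) against the number of genes, counted from the highest down, with 1 line per library. The lines rise steeply over the first 12 genes, to 90.8% and 91.5%, and are flat over the rest.

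Mir411, at chr12:109710175-109710256, was the highest gene, and stood at rank 20 of all miRNA genes in replicate 1 and 21 in replicate 2. It had 39942 and 82060 reads, or 13346 and 12868 CPM (mean 13107 ± 338, SD, n = 2). Mir379, which opens the cluster at chr12:109709060-109709125, had 15851 and 31656 reads, or 5296 and 4964 CPM (mean 5130 ± 235). Mir411 was thus the higher of these related hairpins in both pools, by 2.52-fold in reads in replicate 1 (95% interval 2.47 to 2.57) and 2.59-fold in replicate 2 (2.56 to 2.63). Mir1193, at chr12:109715671-109715791, which holds the seed of miR-379-5p, had 2548 and 6074 reads, or 851 and 952 CPM (mean 902 ± 71.5). The hairpins with the seed AUGUAAC summed to 18237 ± 573 CPM and those with GGUAGAC to 6032 ± 163 CPM (SD, n = 2), with Mir379 counted in both. These sums join both arms of each hairpin, so they are not levels of the seeds.

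Mir487b, at chr12:109727333-109727414, was second in both libraries. It had 26896 and 67783 reads, or 8987 and 10629 CPM (mean 9808 ± 1162, SD, n = 2). Mir411 and Mir487b were the 2 cluster genes over 5000 CPM in both libraries. The 4 genes below them were close in level and changed places between the pools. Gm24321, at chr12:109743158-109743237 and read as Mir409, had 12904 and 39637 reads, or 4312 and 6216 CPM (mean 5264 ± 1346). It held rank 6 in the cluster in replicate 1 and rank 3 in replicate 2. Mir381, at chr12:109726822-109726896, had 15710 and 24799 reads, or 5249 and 3889 CPM (mean 4569 ± 962), and moved the other way, from rank 4 to rank 6. Mir369, at chr12:109743418-109743496, whose 3p product is known for acting at AU-rich elements of the tumour necrosis factor messenger RNA, held rank 5 in both. It had 13335 and 30682 reads, or 4456 and 4811 CPM (mean 4633 ± 252). The means of Gm24321 and Mir379 differed by less than the larger of their SDs, as did those of Mir369 and Mir381.

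Mir382, at chr12:109733771-109733846, held rank 7 in both libraries with 10817 and 22647 reads, or 3614 and 3551 CPM (mean 3583 ± 44.5, SD, n = 2). Gm25252, at chr12:109723756-109723875 and read as Mir376a, had 9687 and 15696 reads, or 3237 and 2461 CPM (mean 2849 ± 548). Hairpins of the Mir376 family are known for A-to-I editing in the seed, which gene counts do not show. Mir541, at chr12:109742409-109742498, had 7726 and 15419 reads, or 2581 and 2418 CPM (mean 2500 ± 116), and its mean differed from that of Gm25252 by less than the larger SD. Mir299b, at chr12:109710645-109710693 and read as Mir299a, had 6036 and 10002 reads, or 2017 and 1568 CPM (mean 1793 ± 317). Mir154, at chr12:109738433-109738498, had 5038 and 7178 reads, or 1683 and 1126 CPM (mean 1405 ± 394), and was not separated from Mir299b by the larger SD either. These genes from rank 7 to rank 11 kept their order in both libraries. Mir134, at chr12:109734139-109734209 and known as a repressor of Limk1 at dendritic spines, was the twelfth. It had 2952 and 6397 reads, or 986 and 1003 CPM (mean 995 ± 11.9), the smallest relative spread of the 12 highest genes. Over these 12 genes, the SD was 1.19% to 28.1% of the mean, with a median of 8.64%.

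The lower genes filled the range below 1000 CPM. Gm25750, at chr12:109711779-109711890 and read as Mir380, had 2938 and 5573 reads, or 982 and 874 CPM (mean 928 ± 76.2, SD, n = 2). Mir300, the relative of Mir381, had 1815 and 3131 reads, or 606 and 491 CPM. Its mean of 549 ± 81.6 CPM stood well below the 4569 ± 962 CPM of Mir381. The hairpins with the seed GGUUGUC, Mir410 and Mir494, summed to 384 ± 41.0 CPM. Those with GGUUGCC, Mir496a and Mir453, summed to 136 ± 15.3 CPM, all of it from Mir496a, and those with GGUUGAC, Mir758 and Mir1197, to 8.28 ± 1.51 CPM. The 3 lowest detected genes were Mir666 with 127 and 242 reads (42.4 and 37.9 CPM), Mir3072 with 108 and 177 reads (36.1 and 27.8 CPM) and Mir758 with 25 and 43 reads (8.35 and 6.74 CPM).

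The order of the genes was much the same in both pools. Of the 33 detected genes, 17 had the same rank in both libraries, 31 were within 2 ranks, and the largest shift was 4 ranks. Over these 33 genes, log2 CPM in one library followed that in the other closely (Pearson 0.996, Spearman 0.992), which describes genes of the same libraries and carries no test. Of the 32 steps between genes next to each other in the order of mean level, 16 were smaller than the larger SD of the pair.

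**Figure D3:**
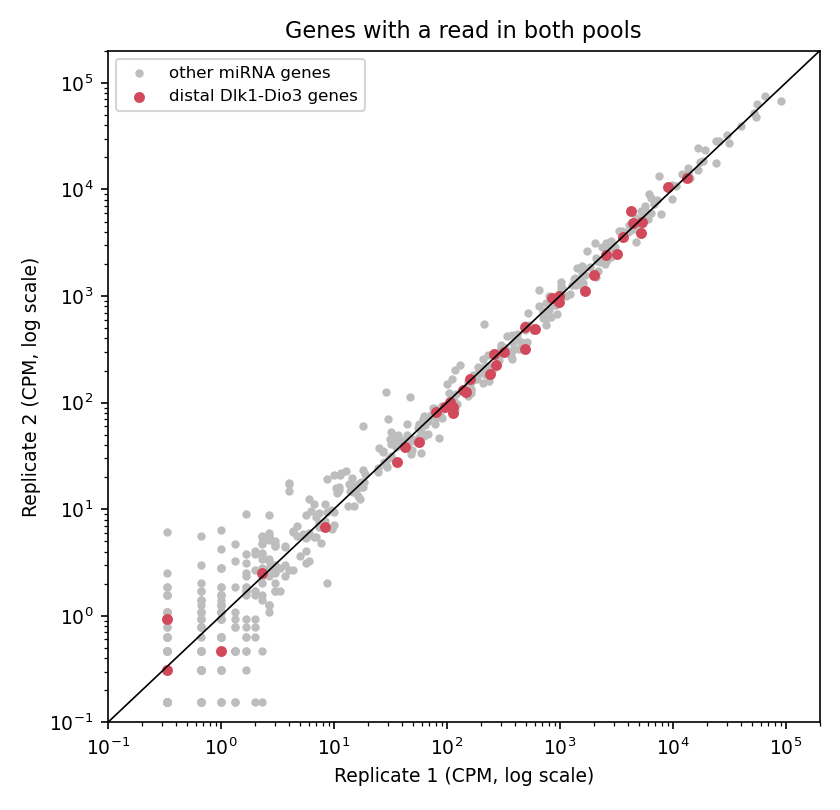
Level in replicate 2 against replicate 1 (CPM, both axes log) for every miRNA gene with a read in both pools, with the cluster genes in colour, the other genes in grey and a line of equal level. The cluster genes follow the line over the whole range from Mir758 to Mir411.

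Along the chromosome, most reads came from 8 genes, grouped here into 3 short stretches, which were chosen after their values were seen. Mir379 and Mir411 at the start supplied 30.4% of the cluster's reads in replicate 1 and 29.4% in replicate 2. Gm25252, Mir381 and Mir487b in the centre supplied 28.5% and 28.0%. Mir541, Gm24321 and Mir369 near the end supplied 18.5% and 22.2%. These 8 genes together gave 77.3% and 79.6% of the reads. Other genes within and between the stretches were left out, such as Mir382 with 5.89% and 5.86%.

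**Figure D4:**
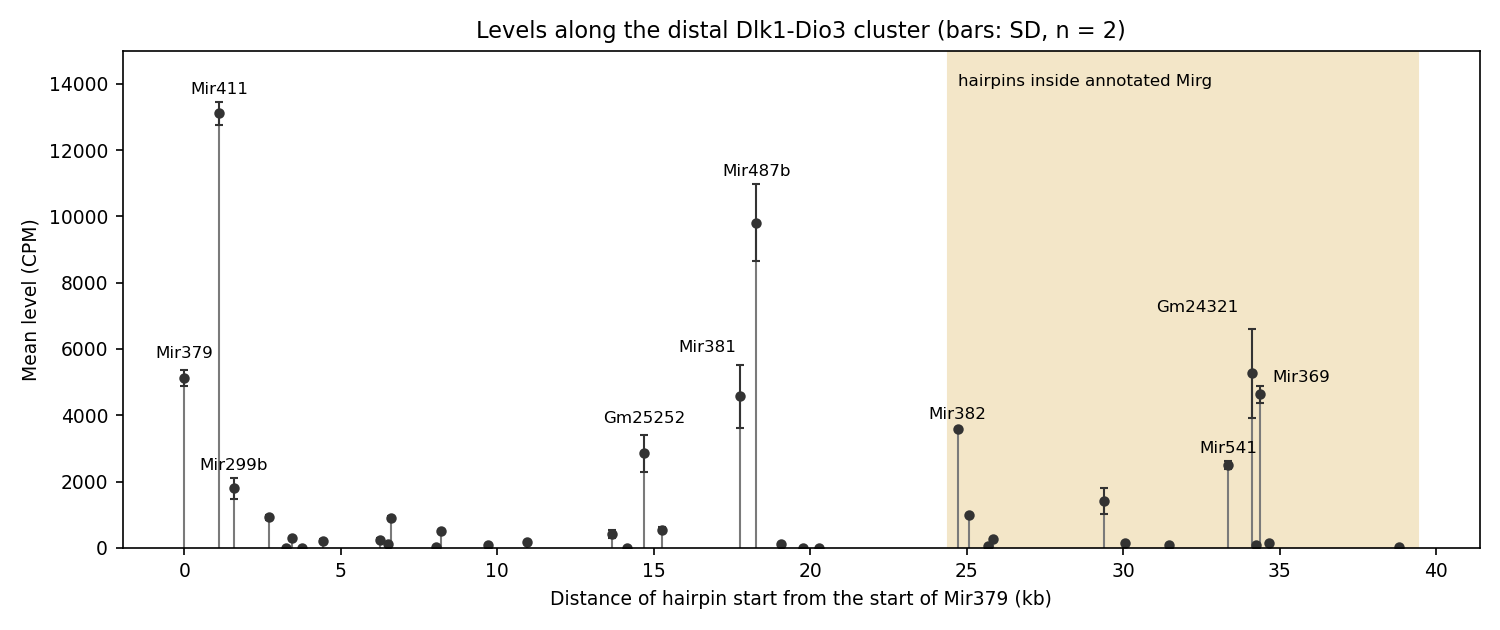
Mean level (CPM, linear axis) of each gene with any read against the distance of its start from the start of Mir379 in kb, with bars for the SD of 2 pools and shading over the hairpins inside annotated Mirg. The genes from Gm25750 to Mir654 form a low run, and elsewhere high genes stand among low ones. The highest points are Mir411 near the start and Mir487b near the middle.

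Neighbouring hairpins differed far more than the libraries did. Of 37 adjacent pairs, 28 had both genes detected, and all 28 had the same gene higher in both libraries. In 21 of the 28 the difference in reads was over 2-fold in both libraries, in 16 it was over 5-fold, and in 10 over 10-fold. Close pairs were among them, and 8 of the 12 detected pairs within 500 bases differed over 5-fold in both libraries.

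Among detected pairs within 500 bases, the steepest steps in reads surrounded Mir412, at chr12:109743289-109743368. Mir412 had 239 and 522 reads, or 79.9 and 81.9 CPM (mean 80.9 ± 1.41, SD, n = 2). Gm24321, which is read as Mir409 and ends 51 bases before it, exceeded it 54.0-fold in replicate 1 (95% interval 47.5 to 61.6) and 75.9-fold in replicate 2 (69.6 to 82.9). Mir369, which begins 49 bases after it, exceeded it 55.8-fold (49.1 to 63.7) and 58.8-fold (53.9 to 64.2). A low hairpin thus lay between 2 high ones within 339 bases, in both pools. Mir410, at chr12:109743715-109743795 and 218 bases beyond Mir369, was low again, with 419 and 833 reads or 140 and 131 CPM. Mir369 exceeded it 31.8-fold (28.9 to 35.2) and 36.8-fold (34.4 to 39.5).

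Other close pairs showed the same contrast. Mir1193 exceeded Mir679, 20 bases before it, 7.94-fold in replicate 1 (95% interval 7.07 to 8.94) and 9.49-fold in replicate 2 (8.75 to 10.3). Mir543 exceeded Mir666, 74 bases before it, 11.6-fold and 13.6-fold. Mir323, with 961 and 1922 reads, stood above Mir758 by 38.4-fold and 44.7-fold. Mir487b exceeded Mir539, 714 bases beyond it, 78.9-fold and 117-fold.

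The noncoding gene Mirg, annotated on the plus strand at chr12:109729764-109749460, covers the second part of the cluster. It holds 14 of the genes, 9 in exons and 5 in introns, and 13 of them were detected. They supplied 30.1% of the cluster's reads in replicate 1 and 32.8% in replicate 2. The other 24 genes, upstream of Mirg and with no annotated plus-strand host, supplied 69.9% and 67.2%. The highest genes inside Mirg were Gm24321 and Mir541 in introns, and Mir369 and Mir382 in exons, so high hairpins were found in both kinds of position.

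The reads of the whole cluster lay on the plus strand, except for 15 in replicate 1 and 12 in replicate 2. The 34 plus-strand genes had no read on the opposite strand in either library. The 4 minus-strand genes, by contrast, had their reads on the opposite strand, which is that of the plus-strand hairpins Mir299a, Mir380, Mir376a and Mir409. Reads of Gm25750, Gm25252 and Gm24321 were all of this kind, and Mir299b had 6021 and 9990 of them. These genes together gave 17.2% and 18.3% of the cluster's reads, a sum of 10833 ± 405 CPM (SD, n = 2). A tally restricted to the annotated strand leaves Gm24321, the third gene of the cluster by mean level, at 0.

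A set of 3 hairpins is shown whole, because they share a short stretch near the 5′ end while their levels differ widely. They come from RefSeq on GRCm38.p6, plus strand, at the coordinates given above, and the capitals mark UACUUG and, in Mir411 and Mir369, AGUAUC near the 3′ end.
Mir411: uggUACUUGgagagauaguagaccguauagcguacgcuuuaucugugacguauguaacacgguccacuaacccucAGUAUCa
Mir369: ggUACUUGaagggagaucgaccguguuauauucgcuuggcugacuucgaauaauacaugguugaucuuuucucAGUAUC
Mir410: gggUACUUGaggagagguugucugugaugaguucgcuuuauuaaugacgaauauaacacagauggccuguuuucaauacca
Both motifs were picked after the sequences were seen, and were searched for on the hairpin's own strand and as the reverse complement. UACUUG occurred in 10 of 35 cluster hairpins (28.6%, 95% Clopper-Pearson interval 14.6 to 46.3), and in 16 of 968 other mouse hairpins (1.65%). Its reverse complement, CAAGUA, occurred in 0 cluster hairpins and 10 others. AGUAUC occurred in 6 of 35 (17.1%) and 14 of 968 (1.45%), and its reverse complement GAUACU in 1 and 13. By their letters, the 2 motifs cannot overlap each other on 1 strand. But UACU, which opens UACUUG, is the reverse complement of AGUA, which opens AGUAUC. The 2 stretches can thus pair within a hairpin, and their counts are not independent. Both motifs occurred together in 4 cluster hairpins. The 10 hairpins with UACUUG included Mir411 and Mir487b, the highest genes, and also Mir453, which had no read. A match is a description of these letters only. The median GC content of cluster hairpins was 43.4%, against 51.9% for the others.

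The pools were compared gene by gene with a two-sided exact binomial test on the reads, adjusted by the Benjamini-Hochberg method over all 333 detected genes. With 1 group, this test compares these libraries and covers counting error only. Of the 33 cluster genes tested, 16 were higher in replicate 1 and 4 were higher in replicate 2 at an adjusted p of 0.05, and 13 were not called. Over all tested genes, 53.5% were called, 27.6% higher in replicate 1 and 25.8% higher in replicate 2. The cluster's called share of 60.6% was near that background, and its split by direction was 48.5% against 12.1%. The differences were small. The log2 ratio of replicate 2 over replicate 1 ranged from -0.62 to 0.53 in the cluster, with a median of -0.10 against -0.01 over all tested genes. Its SD over genes was 0.25, against 0.45 over all tested genes. Within 1.5-fold were 32 of the 33 genes (97.0%), against 88.6% of all tested genes. Mir376c, higher in replicate 1, was the 1 cluster gene called and over 1.5-fold. Among all tested genes 8.11% were, 1.2% higher in replicate 1 and 6.91% higher in replicate 2.

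**Figure D5:**
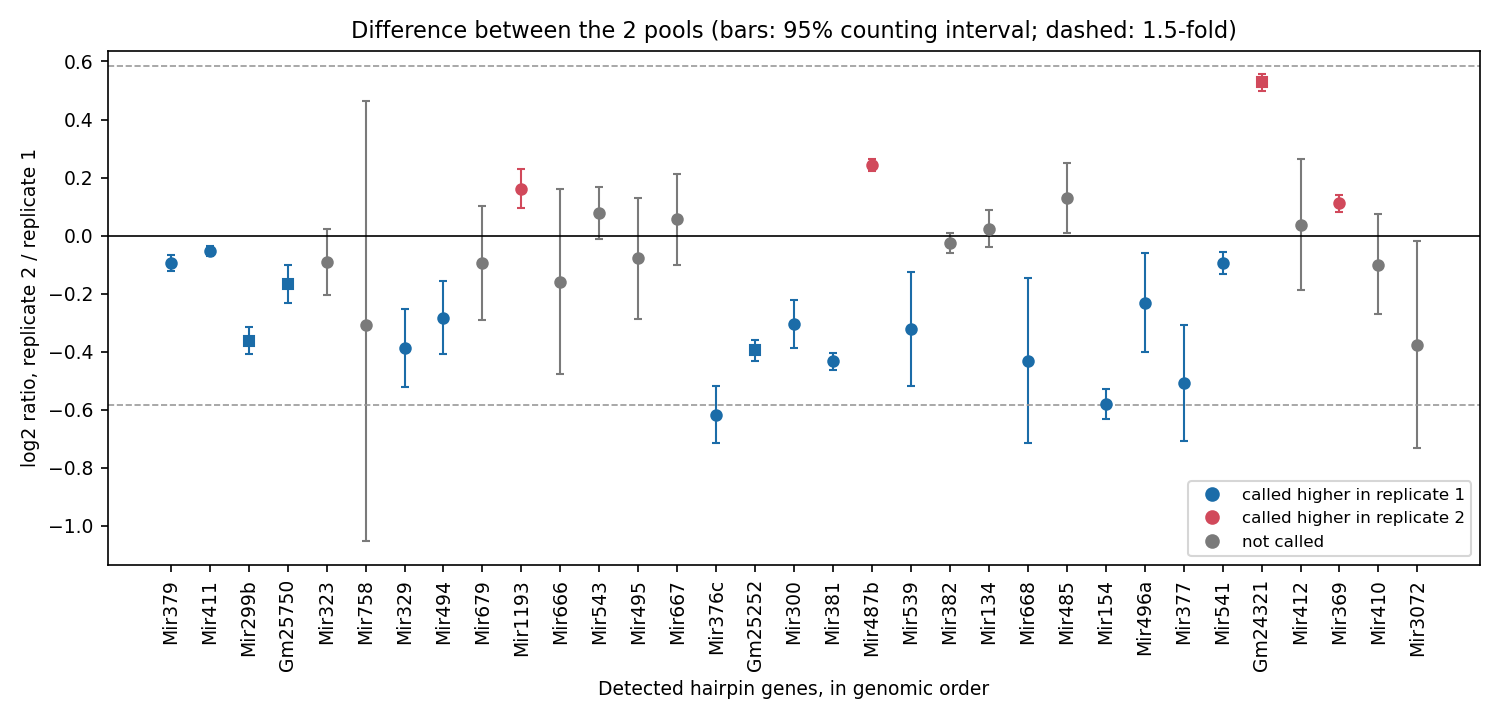
log2 ratio of replicate 2 over replicate 1 for the 33 detected genes in genomic order, with bars for the 95% counting interval, dashed lines at 1.5-fold and colours for the call. Most points lie between 0 and the lower dashed line, and Gm24321 is the highest point at 0.53.

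The genes higher in replicate 2 were led by Gm24321, read as Mir409, with a log2 ratio of 0.53 (95% interval 0.50 to 0.56, adjusted p = 1.11e-300, exact binomial test). Mir487b followed at 0.24 (0.22 to 0.26, adjusted p = 1.21e-121, exact binomial test). Mir1193 at 0.16 (0.09 to 0.23, adjusted p = 4.81e-06) and Mir369 at 0.11 (0.08 to 0.14, adjusted p = 4.20e-13) were the other 2, by the same exact test. The genes higher in replicate 2 thus included 3 of the 5 highest of the cluster. Mir485, at 0.13, did not pass (adjusted p = 0.0654, exact binomial test).

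The 5 largest ratios toward replicate 1 belonged to Mir376c, Mir154, Mir377, Mir381 and Mir668. Mir376c, at chr12:109722718-109722803, had 1471 and 2044 reads, or 492 and 321 CPM, a log2 ratio of -0.62 (95% interval -0.71 to -0.52, adjusted p = 4.90e-34, exact binomial test). Mir154 had a log2 ratio of -0.58 (-0.63 to -0.53, adjusted p = 3.73e-102) and Mir381 one of -0.43 (-0.46 to -0.40, adjusted p = 3.97e-184), by the same exact test. Mir377 had 343 and 514 reads, or 115 and 80.6 CPM, and a log2 ratio of -0.51 (-0.71 to -0.31, adjusted p = 2.10e-06, exact binomial test). Mir668 had 171 and 270 reads, or 57.1 and 42.3 CPM, and a log2 ratio of -0.43 (-0.71 to -0.15, adjusted p = 0.00544, exact binomial test). The intervals of the last pair are wide because their read counts are low.

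Related hairpins lay on the same side in some cases and on opposite sides in others, in a cluster where 16 of the 20 called genes were higher in replicate 1. Gm25252 (Mir376a) and Mir376c, of the Mir376 family, had log2 ratios of -0.40 and -0.62, and Mir381 and Mir300 had -0.43 and -0.30, all called higher in replicate 1. Mir379 and Mir411 had -0.09 and -0.05, both called higher in replicate 1, while Mir1193, which shares the seed of miR-379-5p, had 0.16 and was called higher in replicate 2. The minus-strand genes Mir299b and Gm25750 had -0.36 and -0.17, both called higher in replicate 1, as was Gm25252, whereas the minus-strand gene Gm24321 had 0.53 and was called higher in replicate 2. Mir382, at -0.03 (95% interval -0.06 to 0.01), and Mir134, at 0.02 (-0.04 to 0.09), were not called although both are among the 12 highest genes.

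Neighbours did not always differ between the pools in the same direction. In 3 of the 28 adjacent detected pairs, 1 gene was called higher in replicate 1 and the other higher in replicate 2. In Mir381 and Mir487b, 436 bases apart, the log2 ratios of -0.43 and 0.24 differed by 0.67, the largest such gap in the cluster. Mir541 and Gm24321, 659 bases apart, had -0.09 and 0.53. The third pair was Mir487b and Mir539, at 0.24 and -0.32. The median gap between adjacent detected genes was 0.25. Most adjacent pairs with both genes called went the same way, such as Mir379 and Mir411, in a cluster where most called genes were higher in replicate 1.

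Inside Mirg, 5 genes were called higher in replicate 1, 2 higher in replicate 2 and 6 were not called. Among the genes with no annotated host the counts were 11, 2 and 7. Over all tested genes, 27.6% were higher in replicate 1 and 25.8% in replicate 2. The summed level of the Mirg genes was 18469 and 19900 CPM, a log2 ratio of 0.11, and that of the others 42920 and 40744 CPM, a log2 ratio of -0.08. Neither group of genes moved far as a sum.

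The proximal miRNAs of the same locus, around Meg3, Rtl1 and Rian, form the nearest comparison. They were the 20 counted genes from 109.54 to 109.705 Mb, of which 14 were detected. Their highest genes were Mir127, which lies antisense to Rtl1, at 9826 and 8123 CPM, Mir431 at 5318 and 4695 CPM, and Mir434 at 1476 and 1403 CPM. Summed, they reached 21865 and 18950 CPM (mean 20407 ± 2061, SD, n = 2). The distal cluster gave 73.7% of the reads of the locus in replicate 1 (95% Clopper-Pearson interval 73.6 to 73.9) and 76.2% in replicate 2 (76.1 to 76.3), a mean of 75.0% ± 1.74. In summed reads per library, its 38 genes exceeded the 20 proximal genes 2.81-fold and 3.20-fold. The median level of the detected genes was not higher in the cluster, at 406 CPM against 471 CPM for the proximal genes. The summed level of the proximal genes had a log2 ratio of -0.21 between the pools, against -0.02 for the distal cluster, and 8 of the 14 were higher in replicate 1, none in replicate 2 and 6 were not called. Their called share of 57.1% is near the 53.5% of all tested genes, of which 27.6% were higher in replicate 1 and 25.8% in replicate 2. The SD of the proximal log2 ratios over genes was 0.19, against 0.25 in the cluster. All 14 proximal genes were within 1.5-fold, so a small spread was not particular to the cluster.

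The pools also differed in summed levels of cell type marker miRNAs, given here because the cluster is known from neurons and muscle. Skeletal muscle markers, of which 2 of the 5 counted were detected and Mir133a-1 and Mir133a-2 had no read, summed to 7930 and 5975 CPM. Neural markers, of which 3 of the 8 counted were detected and Mir124a-1 and Mir124a-2 had no read, summed to 594 and 499 CPM. Identical gene copies, such as those of Mir124a or Mir133a, can be left uncounted here, because reads that map to several places are in no gene. Epithelial markers (7 genes) summed to 151799 and 128693 CPM, mesenchymal markers (4 genes) to 18060 and 16593 CPM, and cartilage markers (2 genes) to 15342 and 14429 CPM. The first 2 sums follow their highest genes, Mir203 with Mir205 and Mir214, which were higher in replicate 1. By gene, 4 epithelial markers were higher in replicate 2 and 3 in replicate 1 (median log2 ratio 0.11), and 2 mesenchymal markers were higher in replicate 2, 1 in replicate 1 and 1 was not called (median 0.24). The endothelial Mir126a had 24124 and 28452 CPM, leukocyte markers (4 counted) 2918 and 3480 CPM, and erythroid markers (2 genes) 196 and 214 CPM. By gene, 2 leukocyte markers were higher in replicate 2 and 2 were not called. The 2 erythroid genes went opposite ways, with log2 ratios of -0.86 and 0.59, and both were called. The part of these differences in those of the cluster was not tested.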

How the data were processed

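Raw counts of small RNA reads per miRNA gene were deposited by the authors for each library, on mm10 with GENCODE M4, per the deposited file lists. The aligner, like the counter, is not given in the sources used here. The 3 deposited count columns were taken, from their values, as reads on either strand, on the gene's strand and on the opposite strand, since the first is the sum of the others; the strand results rest on this reading. Reads on either strand were used, since minus-strand genes of the cluster hold reads of the hairpin opposite. Reads that mapped to several places (30.6% and 29.7% of all reads), found no feature (2.19% and 3.01%) or were unmapped (16.2% and 21.8%) are in no gene and stayed out of the totals. The rule for such reads is not stated beyond their separate tally. Copies with near-identical sequence may therefore be undercounted. So may Mir299a, counted as Mir299b, since 21 bases of its 5p product can also be read on the opposite strand of its hairpin. This was not tested. In the cluster, the hairpins of 4 genes, Mir411, Mir758, Mir376c and Mir487b, hold 20 bases in a row that recur in another hairpin. In their mature sequences the longest such run was shorter. It was 12 bases for Mir411, 13 for Mir758, 13 for miR-487b-5p and 18 for miR-376c-5p. The 3p sequences of Mir376c and Mir487b were not at hand.

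Gene names and positions came from GENCODE M21, and sequences from RefSeq GRCm38.p6. CPM used TMM factors from edgeR 4.0.16 (1.005 and 0.995). Genes with at least 10 reads in each library were tested with an exact binomial test (scipy 1.17.1) and Benjamini-Hochberg adjustment at 0.05. The test was checked on simulated data. With 1 library per pool, p-values and intervals cover counting error only, and reads without molecular identifiers are not independent molecules. DESeq2 1.42.0 size factors, total-count scaling, other filters, strand choices and leaving out shared sequence or Mir203 were tried as alternatives. The members, lists and tests were chosen with earlier results of these data known. Genes given with values were the 12 highest, detected minus-strand genes, the 5 largest called ratios in each direction with at least 50 reads on average, and the 3 lowest detected. Other genes were named beside a neighbour or relative, after their values were seen.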

Additional observations from a re-analysis of the deposited data

Results flagged for a closer look

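Reads on the annotated strand of Mir299b were outside the main account, which read this gene as Mir299a on the opposite strand. There were 15 such reads in replicate 1 and 12 in replicate 2, above the limit of 3 reads, beside 6021 and 9990 on the opposite strand. The other 3 minus-strand genes had none. In the RefSeq hairpin of Mir299a, 21 bases of the 5p product and 18 bases of the 3p product can also be read on the opposite strand, and the part of this in those reads was not tested.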

How the results depend on the processing

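Of 70 recomputed values that answer a comparison, 60 kept their direction and stayed within the limits set, 10 moved and 0 reversed. Some of the 60 could not have moved. Detection and the share of locus reads use raw reads, which scaling does not change. When a replicate is left out, the summed level and the share always stay within their limit, the SD over the pools. Requiring more than 1.5-fold as well left 1 cluster gene higher in replicate 1, 0 higher in replicate 2 and 27 genes called over all genes. The summed level was 66260 CPM with Mir203, the highest gene, left out of the totals, 37688 CPM without the genes sharing 20 bases with another hairpin, 50183 CPM from plus-strand genes and 51915 CPM from reads on the annotated strand, an alternative chosen after seeing the data. In the same order but for Mir203, the cluster's share of locus reads was 64.9%, 71.1% and 71.1%. DESeq2 size factors gave 16 and 6 calls in the cluster, and total-count scaling 17 and 4. Leaving out a replicate gave a summed level of 60643 to 61389 CPM, 33 to 34 detected genes and a share of 73.7% to 76.2%, with no ratio possible. Of 80 comparisons of named ratios, 79 kept their call, and Mir382 was called under total-count scaling (log2 ratio -0.04, adjusted p = 0.0377, exact binomial test). Leaving out Mir203 did not alter the named ratios, and plus-strand reads altered only that of Mir299b, slightly. In practice, only the DESeq2 and total-count scalings could change a call. No paired analysis was possible because there is 1 group. Depth limits the low genes: Mir758, with 25 and 43 reads, has a 95% interval of -1.05 to 0.46 for its log2 ratio.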

Other observations

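Of 5 other imprinted miRNA genes outside the locus, 1 stood above every gene of the cluster and 4 lay within the cluster's range of levels. Mir335, which lies in the imprinted gene Mest, had 120087 and 250946 reads, or 40124 and 39351 CPM (mean 39738 ± 546, SD, n = 2), above the 13107 ± 338 CPM of Mir411. Mir483, in Igf2, had 2077 and 1500 CPM, and Mir675, in H19, had 66.2 and 72.1 CPM. Mir296 and Mir298 had 3080 and 2907 CPM and 2267 and 2108 CPM. Of these 5 genes, 4 were called higher in replicate 1 and 0 higher in replicate 2, where 27.6% and 25.8% of all tested genes were.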
